A study of Homo sapiens with 12 samples.

Results

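The transcription factors that establish and maintain the melanocyte lineage were followed in WM-266-4 cells, a human melanoma cell line. The members were taken by gene name, MITF, SOX10, PAX3, TFAP2A, LEF1, SOX9, ZEB2 and SNAI2, of 35579 genes with at least 1 transcript in the files, and all 8 members passed the filter on low counts. Every library came from cells that carried a stable lentiviral shRNA knock-down of TYRO3, a receptor tyrosine kinase, and that were transfected with a pEZY-myc-his plasmid and serum-starved overnight. The plasmid encoded GFP, which is the control, wild-type TYRO3 (WT), TYRO3 with the substitution I449A (ΔGS), which is described as resistant to gamma-secretase, or TYRO3 with the substitutions P408A, L409P and G419P (ΔADAM), which is described as resistant to ADAM proteases. Each of the 4 groups was sequenced once in each of 3 experiments, which gives 12 libraries. The labels name the GFP plasmid, whereas the text of the study calls the control a vector without TYRO3, and the labels are followed here. The comparison asked how TYRO3 expressed from a plasmid, above the level left after the knock-down, and its cleavage relate to these factors. All cells derive from 1 line, and no untransfected library and no library without the knock-down was analysed here.

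MITF is a basic helix-loop-helix leucine zipper factor that drives the genes of melanin synthesis and of melanocyte survival, and its level separates pigmented from pigment-poor states of melanoma cells. Its melanocyte-specific M promoter is bound by SOX10, an HMG-box factor of the neural crest, by PAX3, a paired-box factor, by LEF1, which acts with beta-catenin in Wnt signalling, and by CREB, which acts downstream of cyclic AMP. TFAP2A cooperates with MITF at pigment genes, and SOX9 is a relative of SOX10 that is often high in melanoma cells in which SOX10 is low. ZEB2 and SNAI2 are zinc-finger factors of the neural crest and the melanocyte that are best known as repressors of E-cadherin in epithelial-mesenchymal transition.

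The total of the estimated counts was 4008293 in the GFP library of experiment 1 and between 18365999 and 38184838 in the other libraries. The GFP library of experiment 1 thus holds the least information of the 12, and it also had the lowest median correlation with the other libraries, 0.978, followed by the ΔGS library of experiment 3 with 0.98, against at least 0.986 in the others. TYRO3 itself, given as CPM, the counts scaled by TMM to a common library size,, lay between 47.3 and 56.6 CPM in the 3 GFP libraries and between 1181 and 3694 CPM in the 9 TYRO3 libraries, which separates GFP from TYRO3 libraries as labelled. The ranges of WT, ΔGS and ΔADAM overlapped, so this level does not check which construct a TYRO3 library carries. The TYRO3 level was highest in experiment 1 in each of the WT, ΔGS and ΔADAM groups. All 8 melanocytic markers examined, MITF and SOX10 among them, were detected, with summed levels of 2290 to 2780 CPM in the GFP, 1320 to 2550 in the WT, 1370 to 2290 in the ΔGS and 1360 to 2060 in the ΔADAM libraries. Of the markers of other cells, those under 1 CPM in every library were 3 of 3 keratinocyte (KRT5, KRT14 and KRT1), 1 of 3 epithelial (EPCAM), 1 of 5 fibroblast (COL1A2), 2 of 3 endothelial (CDH5 and VWF) and 3 of 4 immune markers (PTPRC and CD3E among them). The summed level of the epithelial list was 123 to 146 CPM with GFP, 132 to 208 with WT, 171 to 206 with ΔGS and 164 to 200 CPM with ΔADAM TYRO3, and that of the fibroblast list 75.5 to 98.2, 59.9 to 78.8, 56.1 to 84.1 and 53.1 to 80.9 CPM. The endothelial list summed to 0.787 to 2.42 CPM and the immune list to 31.1 to 37.1 CPM over all libraries. The part of the epithelial and fibroblast lists in the results was not tested. In bulk RNA, a lower share of expressing cells and less RNA per cell cannot be told apart.

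MITF is transcribed from several promoters over a region of chromosome 3 from 69739435 to 69968337 (GRCh38, plus strand). The windows before its starts are shown because its transcripts were grouped by the M start and the upstream A start. A transcript that begins within 250 bases of either start was put with that start. All others, those at a further RefSeq start included, count as other starts. RefSeq (GRCh38.p14) lists windows of 250 bases before 3 MITF starts. The M window (chr3:69936342-69936591, plus strand) and the window before the upstream A start (chr3:69739214-69739463, plus strand) are printed here, with the motifs that were found in capitals.
M promoter: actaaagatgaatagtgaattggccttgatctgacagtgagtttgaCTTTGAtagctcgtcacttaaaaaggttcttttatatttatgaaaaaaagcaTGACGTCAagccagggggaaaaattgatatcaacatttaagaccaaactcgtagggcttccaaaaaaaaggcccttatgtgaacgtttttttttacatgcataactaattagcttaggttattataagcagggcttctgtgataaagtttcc
A promoter: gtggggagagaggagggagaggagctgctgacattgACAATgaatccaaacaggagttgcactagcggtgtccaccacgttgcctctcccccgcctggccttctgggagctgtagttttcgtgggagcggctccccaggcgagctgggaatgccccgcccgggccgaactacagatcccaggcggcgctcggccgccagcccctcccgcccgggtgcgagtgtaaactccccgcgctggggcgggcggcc
The letters searched on both strands were TGACGTCA for the cyclic AMP response element, CTTTGA for TCF/LEF factors, ACAAT for SOX factors, and the E-boxes CATGTG and CACGTG. The M window held TGACGTCA, starting 152 bases before the transcript start, and CTTTGA, starting 204 bases before it, and these matches do not overlap. The A window held ACAAT starting 214 bases before its start, and the window of a second upstream start (chr3:69763561-69763810) held its reverse complement, ATTGT, starting 64 bases before its start. None of the 3 windows held CATGTG or CACGTG. Of 35116 such windows of RefSeq, 1.65% held TGACGTCA, 11.2% CTTTGA, 24.6% ACAAT, 9.42% CATGTG and 6.34% CACGTG. The M window had a GC content of 34.8% and the A window of 68.0%.

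Compared per length, as TPM, which corrects for transcript length, the factors spanned a wide range in the GFP libraries. SOX10 was the most abundant with 326.6 ± 59.4 TPM (SD, n = 3 here and for the following means), MITF followed with 136.7 ± 9.32 and TFAP2A with 121.2 ± 13.4 TPM. LEF1 had 77.76 ± 8.95, ZEB2 66.03 ± 8.6, PAX3 21.08 ± 2.12, SNAI2 15.5 ± 1.83 and SOX9 0.322 ± 0.148 TPM. In this order the ranges of MITF and TFAP2A overlapped, as did those of LEF1 and ZEB2, and the other neighbours did not. In the WT libraries TFAP2A, at 124.0 ± 9.98 TPM, stood above MITF at 90.14 ± 41.1 with overlapping ranges. In the ΔGS and ΔADAM libraries MITF, at 66.25 ± 25.5 and 69.43 ± 26.7 TPM, came after SOX10, TFAP2A and LEF1, again with a range that overlapped that of LEF1.

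MITF was lower in the TYRO3 libraries than in the control libraries. In experiments 1, 2 and 3 it had 305.8, 305.5 and 336.7 CPM with GFP, 94.97, 230.3 and 254.3 CPM with WT, 122.8, 207.6 and 156.5 CPM with ΔGS, and 105.1, 214.3 and 157.1 CPM with ΔADAM TYRO3. The 3 GFP libraries lay above all 9 TYRO3 libraries, and in each TYRO3 group the library of experiment 1 was the lowest. The mean over the WT, ΔGS and ΔADAM groups was 1.95-fold below GFP (log2 fold change -0.96, standard error 0.18, adjusted p = 0.0163, quasi-likelihood test of edgeR, Benjamini-Hochberg adjusted over all genes), which counted as a call, defined as a fold change over 1.5 at an adjusted p of at most 0.05. Of the single constructs, ΔADAM was called (log2 fold change -1.06, adjusted p = 0.0497, edgeR), whereas ΔGS (-1.01, adjusted p = 0.06) and WT (-0.82, adjusted p = 0.144) were not. The ΔADAM call held in 3 of the 12 fits that each left out 1 library, and the call of the mean in 11 of 12. With a term for each experiment in place of the batch term, which is the paired form of the fit, ΔGS was called as well (adjusted p = 0.0215) and WT had an adjusted p of 0.067 (edgeR).

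The size of the MITF difference varied between experiments. Averaged over the 3 constructs, the log2 difference from GFP was -1.52 in experiment 1, -0.49 in experiment 2 and -0.87 in experiment 3. Without the GFP library of experiment 1, the log2 fold change of the mean of the 3 constructs was -0.65 with an adjusted p of 0.171 (edgeR, batch term) and -0.66 with 0.0517 in the paired fit, and neither is a call. The depth of that library and the higher TYRO3 level of experiment 1 move with the larger difference, and their part in it was not tested.

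**Figure D1:**
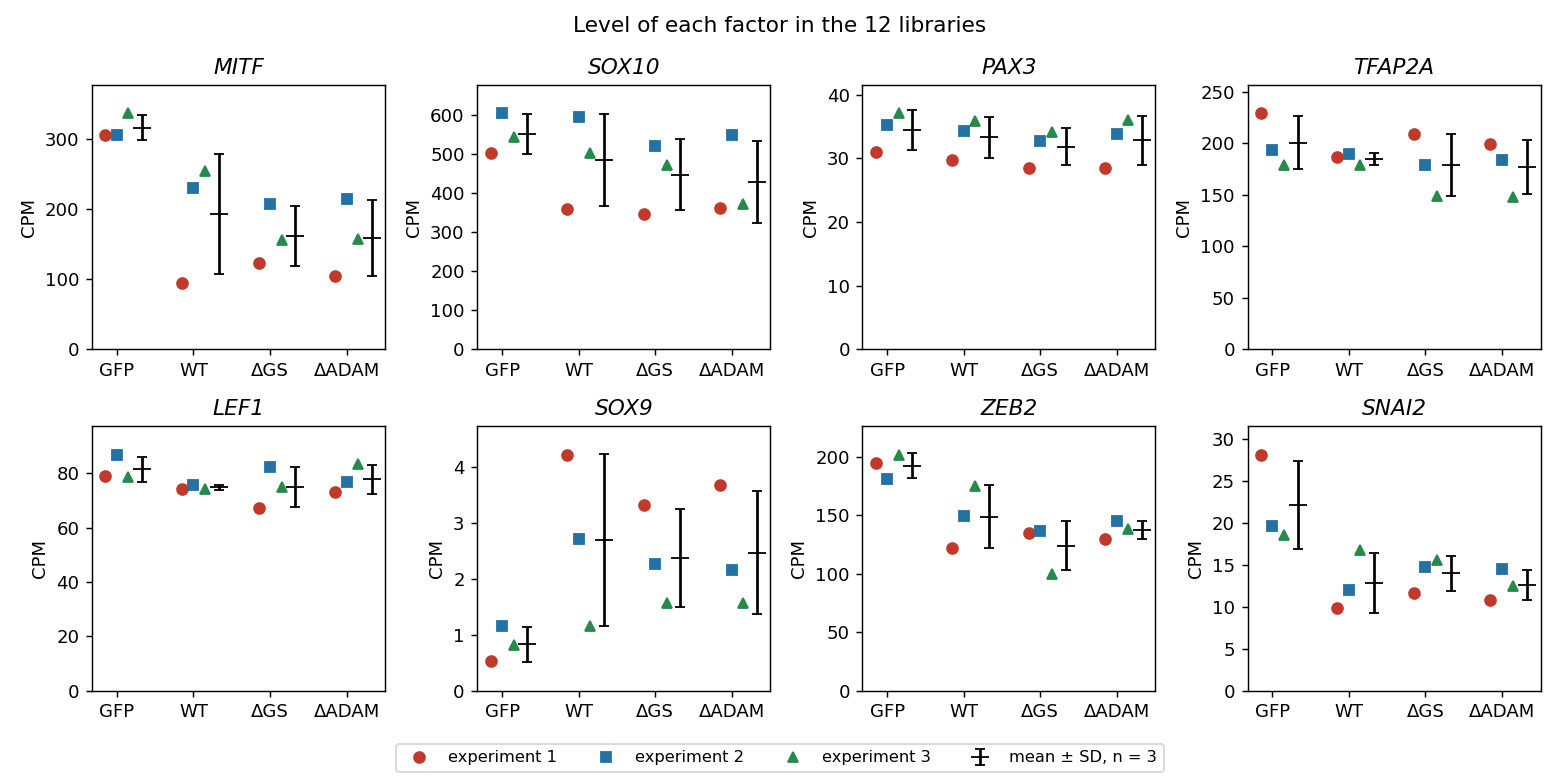
Level of each of the 8 factors in CPM (vertical axis from 0) in the GFP, WT, ΔGS and ΔADAM libraries, with a marker for each experiment and the mean ± SD (n = 3) beside it. The 3 GFP libraries of MITF sit between 305.5 and 336.7 CPM, above all 9 TYRO3 libraries, of which the highest has 254.3 CPM.

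Most MITF counts were assigned to transcripts that start at the M promoter. The files hold 18 MITF transcripts, of which 6 start there, 5 at the A promoter and 7 elsewhere, and 4 of the 18 were at 0 in every library. Transcripts of the M promoter took 90.6% ± 2.02 of the MITF counts with GFP, 88.7% ± 3.87 with WT, 84.4% ± 5.74 with ΔGS and 84.7% ± 2.83 with ΔADAM TYRO3 (SD, n = 3). The mean share over the constructs differed from that with GFP by -4.69 percentage points, which did not pass an exact permutation test with labels exchanged within experiments (two-sided p = 0.188, 64 arrangements, smallest possible p 0.0156). For single constructs, the same exact test gave p = 1.0 for WT and p = 0.25 for ΔGS and ΔADAM, and 0.25 is the smallest p that 8 arrangements can give in a two-sided test. The share was below that of GFP in 3 of 3 experiments with ΔGS and with ΔADAM. The lowest share, 77.8%, belonged to the ΔGS library of experiment 3, where transcripts of other starts took 17.2%.

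In absolute terms the M promoter transcripts carried the lower level of MITF. They had 286 ± 16.2 CPM with GFP, 174 ± 82 with WT, 137 ± 39.2 with ΔGS and 136 ± 50.8 with ΔADAM TYRO3 (SD, n = 3). The A promoter transcripts had 19.3 ± 9.36, 14.7 ± 4.8, 9.05 ± 1.58 and 9.28 ± 2.85 CPM in the same order, and other starts 10.4 ± 2.7, 4.97 ± 0.83, 16.1 ± 10.4 and 14.0 ± 5.7 CPM.

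**Figure D2:**
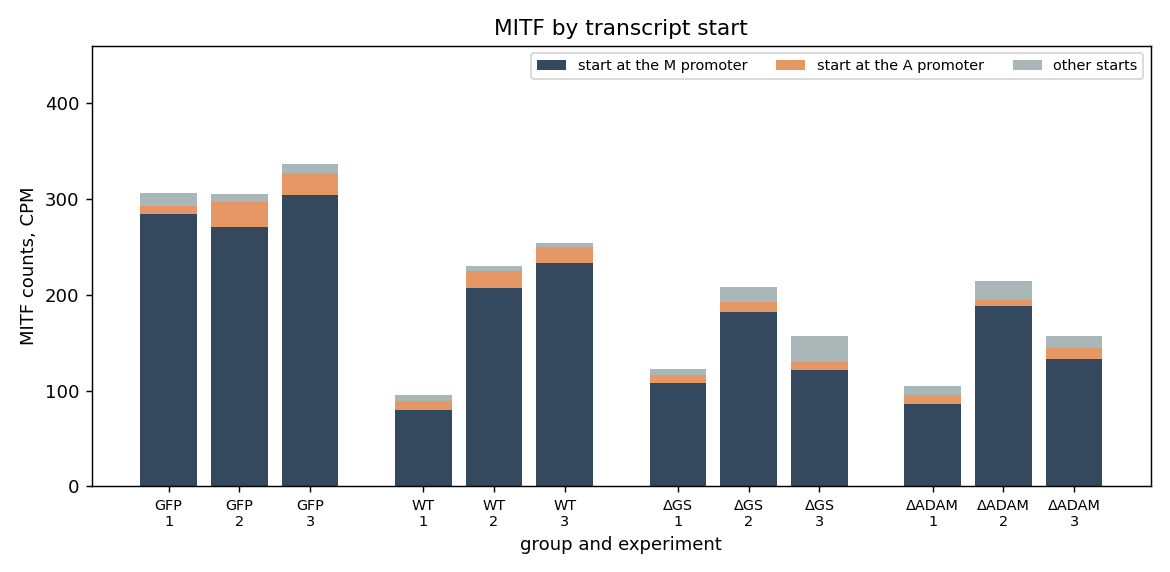
MITF counts in CPM (vertical axis) in each of the 12 libraries, stacked by transcript start: the M promoter, the A promoter and other starts. The M promoter part makes up between 77.8% and 92.8% of each bar and follows the height of the bar.

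The leading transcript was MITF-206, an M transcript of 4479 bases, which held between 71.4% and 80.7% of the MITF counts of a library. MITF-206 had 248 ± 16.1 CPM with GFP, 150 ± 71.6 with WT, 126 ± 32.5 with ΔGS and 121 ± 43.5 with ΔADAM TYRO3 (SD, n = 3). Tested as transcripts, 8 of the 18 passed the filter and 0 were called in any comparison by edgeR, with or without a term for each experiment. At an unadjusted p under 0.05 were 2 of the 8, MITF-206 and MITF-205, in each of the comparisons with GFP. The number of all transcripts under this unadjusted p was not counted, so 2 of 8 has no background rate here. Among genes, 3655 of 15098 were under it for the mean of the constructs (edgeR). Of all 69182 transcripts tested, 0.00578% were called with the batch term in each comparison with GFP. For the mean of the constructs, the log2 fold change was -0.93 for MITF-206 (adjusted p = 0.251, edgeR) and -1.85 for MITF-205 (adjusted p = 0.433), another M transcript with 1.24 ± 0.677 CPM with GFP. The M transcripts MITF-201 and MITF-217 had log2 fold changes of -1.01 and -1.71, the A transcripts MITF-204 and MITF-218 of -0.61 and -0.44, and MITF-203 and MITF-202 of other starts of -0.55 and 0.02. Those of MITF-202, MITF-203 and MITF-204 change sign when single libraries are left out. The transcripts share most of their exons, the deposited estimates carry no uncertainty, and the way reads were divided between them cannot be checked here.

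The factors that act on the M promoter differed less. SOX10 (chromosome 22 from 37970686 to 37987422, minus strand) had 502.8, 604.0 and 543.2 CPM with GFP in experiments 1, 2 and 3, against 358.7, 593.2 and 503.2 with WT, 345.8, 521.5 and 472.1 with ΔGS, and 362.1, 548.0 and 372.5 CPM with ΔADAM TYRO3. Each TYRO3 library was below the GFP library of its experiment, although the groups overlapped across experiments. The log2 fold change of the mean of the constructs was -0.30 (standard error 0.12, adjusted p = 0.149, edgeR), and with a term for each experiment it was -0.30 with an adjusted p of 0.0372, which is below the fold required for a call. SOX10-202 was its leading transcript. SOX10-201 took 31.9% of the SOX10 counts in the ΔGS library of experiment 3 and at most 6.5% in any other library.

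Summed over their transcripts, PAX3 and LEF1 stayed within a narrow band in all libraries. Coding transcripts held 67.8% to 93.7% of the PAX3 counts and 47.8% to 72.6% of the LEF1 counts of a library. Whether the coding part stayed level was not tested. PAX3 (chromosome 2 from 222199888 to 222298996, minus strand) ranged from 31.03 to 37.06 CPM with GFP, from 29.66 to 35.86 with WT, from 28.5 to 34.11 with ΔGS and from 28.53 to 36.07 CPM with ΔADAM TYRO3. The log2 fold change of the mean of the constructs was -0.08, with a 95% interval from -0.22 to 0.07 (adjusted p = 0.529, edgeR). LEF1 (chromosome 4 from 108047545 to 108168956, minus strand) ranged from 78.61 to 86.96 CPM with GFP, from 74.26 to 75.87 with WT, from 67.39 to 82.42 with ΔGS and from 73.14 to 83.41 CPM with ΔADAM TYRO3. Its log2 fold change was -0.10, with a 95% interval from -0.26 to 0.05 (adjusted p = 0.407, edgeR). Both intervals exclude a change of 1.5-fold.

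TFAP2A (chromosome 6 from 10393186 to 10419659, minus strand) had 229.3, 193.8 and 179.0 CPM with GFP in experiments 1, 2 and 3. The TYRO3 libraries had 186.6, 189.4 and 178.9 CPM with WT, 208.8, 179.2 and 148.6 with ΔGS, and 199.4, 184.0 and 148.4 CPM with ΔADAM. Except with WT, the level was highest in experiment 1 and lowest in experiment 3, and the groups overlapped. The log2 fold change of the mean of the constructs was -0.15, with a 95% interval from -0.35 to 0.05 (adjusted p = 0.356, edgeR).

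SOX9 was the only member that was higher in all 9 TYRO3 libraries than in the GFP library of the same experiment. It lies on chromosome 17 from 72121020 to 72126420 on the plus strand and was scarce throughout, with 2, 43 and 16 counts in the GFP libraries of experiments 1, 2 and 3, or 0.526, 1.16 and 0.809 CPM. WT TYRO3 libraries had 4.23, 2.71 and 1.15 CPM, ΔGS libraries 3.32, 2.26 and 1.57, and ΔADAM libraries 3.69, 2.16 and 1.56 CPM. The ΔGS and ΔADAM libraries all lay above the GFP libraries, whereas the WT library of experiment 3 fell just under the GFP library of experiment 2.

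The log2 fold change of SOX9 for the mean of the constructs was 1.19 (standard error 0.35, adjusted p = 0.0673, edgeR), which is not a call. In the paired fit with a term for each experiment it was 1.19 with an adjusted p of 0.0159 (edgeR), and the single constructs had adjusted p of 0.0455 for ΔGS, 0.0379 for ΔADAM and 0.0536 for WT, so that SOX9 was called for the mean, ΔGS and ΔADAM. Without the GFP library of experiment 1, the log2 fold change of the mean was 0.93 with an adjusted p of 0.275 with the batch term, and 0.96 with an adjusted p of 0.0479 in the paired fit (edgeR), the latter a call. In experiment 1 the ratio to GFP was 8.04 with WT (exact 95% interval of the counts 2.15 to 67.6), 6.31 with ΔGS (1.69 to 53.0) and 7.01 with ΔADAM (1.9 to 58.5), and the width of these intervals comes from the 2 counts of the GFP library. In experiments 2 and 3 the ratio lay between 1.43 (0.737 to 2.85, WT in experiment 3) and 2.34 (1.52 to 3.6, WT in experiment 2). These intervals cover counting error only.

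ZEB2 (chromosome 2 from 144364364 to 144524583, minus strand) was lower with the TYRO3 constructs by less than the fold required for a call in the mean. In experiments 1, 2 and 3 it had 195.1, 180.8 and 202.1 CPM with GFP, 121.7, 149.6 and 175.5 with WT, 135.2, 136.9 and 100.2 with ΔGS, and 129.7, 144.8 and 138.2 CPM with ΔADAM TYRO3. The GFP libraries lay above all 9 others. The log2 fold change of the mean was -0.50 (1.41-fold, standard error 0.12, adjusted p = 0.0328, edgeR). For ΔGS it was -0.63 with an adjusted p of 0.0649 with the batch term and 0.025 in the paired fit (edgeR), and the latter is a call. The lowest value was that of the ΔGS library of experiment 3, which is also the library with the high SOX10-201 share. Without that library the log2 fold change of ΔGS was -0.47.

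SNAI2 (chromosome 8 from 48917604 to 48921740, minus strand) fell with the TYRO3 constructs. It had 28.14, 19.58 and 18.55 CPM with GFP in experiments 1, 2 and 3, 9.83, 11.94 and 16.82 with WT, 11.65, 14.68 and 15.61 with ΔGS, and 10.8, 14.44 and 12.52 CPM with ΔADAM TYRO3. The 3 GFP libraries lay above all 9 TYRO3 libraries, and the gap was widest in experiment 1. The log2 fold change of the mean of the constructs was -0.72 (1.65-fold, standard error 0.17, adjusted p = 0.0353, edgeR), a call. The mean log2 difference was -1.39 in experiment 1, -0.52 in experiment 2 and -0.32 in experiment 3. Without the GFP library of experiment 1 the log2 fold change was -0.40 with an adjusted p of 0.241 (edgeR, batch term), and of the 12 fits that each left out 1 library 4 still called SNAI2. In the paired fit ΔADAM was called too (log2 fold change -0.75, adjusted p = 0.0445, edgeR).

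**Figure D3:**
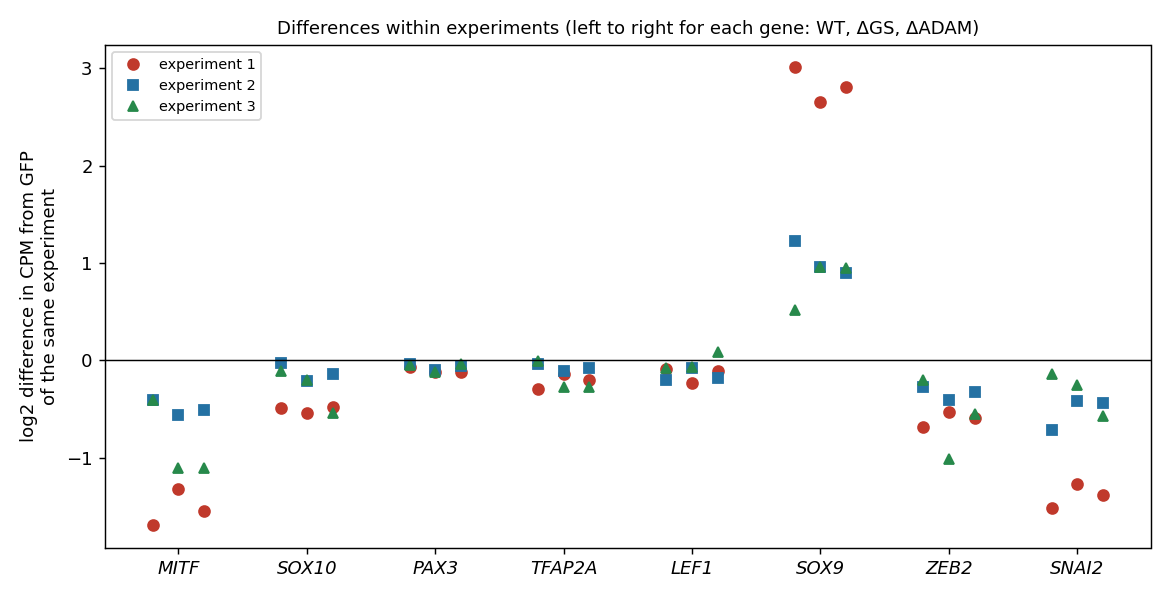
Log2 difference in CPM between each TYRO3 library and the GFP library of the same experiment (vertical axis) for the 8 factors, with WT, ΔGS and ΔADAM from left to right and a marker for each experiment. MITF, SOX10, PAX3, TFAP2A, ZEB2 and SNAI2 are below 0 in 9 of 9 differences, LEF1 in 8 of 9, and SOX9 is above 0 in 9 of 9.

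Of the 8 members, MITF, SOX10, PAX3, TFAP2A, ZEB2 and SNAI2 were below the GFP library of the same experiment in 9 of 9 differences. Over all genes tested, 13.8% were below GFP in 9 of 9 differences and 12.7% were above it in 9 of 9, as SOX9 was. The 9 differences share the 3 GFP libraries and are not independent. For MITF, ZEB2 and SNAI2 the 3 GFP libraries also lay above all 9 TYRO3 libraries. The share of all genes that separate in this way was not counted.

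By the call rule and the batch term, 0 of 8 members were called with WT TYRO3, where edgeR called 0.0397% of 15098 genes. At an unadjusted p under 0.05 were 4 members and 2301 of all genes, and DESeq2 called 2 members and 375 genes. With ΔGS TYRO3, 0 of 8 were called against 0.457% of all genes. Here 4 members and 2895 of all genes had an unadjusted p under 0.05, and DESeq2 called 2 members and 609 genes. With ΔADAM TYRO3, 1 of 8 was called (MITF) against 1.11% of all genes. For the mean of the constructs, 2 of 8 were called (MITF and SNAI2) against 3.31% of all genes. The median log2 fold change was -0.23 over the members and -0.002 over all genes.

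With a term for each experiment, 0 of 8 members were called with WT against 2.35% of all genes, and 3 of 8 with ΔGS (MITF, SOX9 and ZEB2) against 4.68%. With ΔADAM, 3 of 8 were called (MITF, SOX9 and SNAI2) against 5.2%, and the same 3 for the mean of the constructs against 5.68%. Without the GFP library of experiment 1, the fit with the batch term called 0 of 8 members for the mean of the constructs, and 0.00652% of all genes, which is TYRO3 alone. At this setting the paired fit called 1 of 8, SOX9, against 2.51% of all genes. A fit of experiments 2 and 3 alone had no term for the experiment and is thus not paired. It called 0 of 8 members in any comparison, and 1 of 14960 genes in each comparison with GFP.

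**Figure D4:**
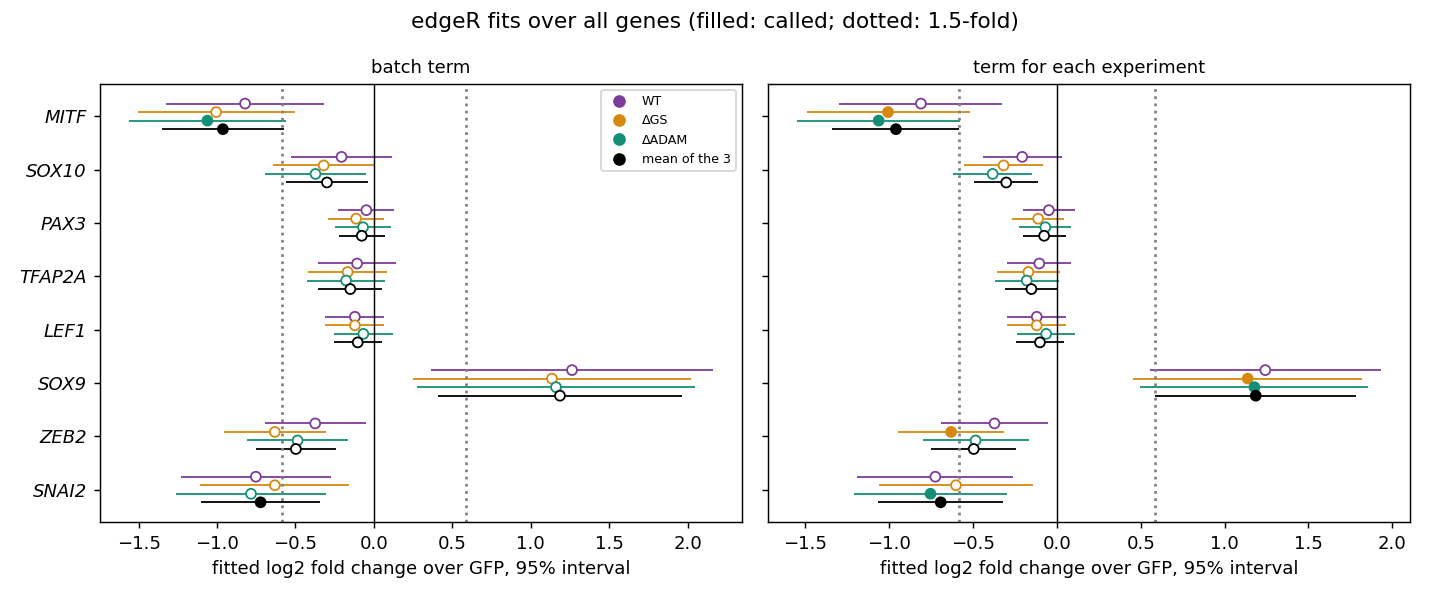
Fitted log2 fold change over GFP with its 95% interval (horizontal axis) for the 8 factors with WT, ΔGS and ΔADAM TYRO3 and for the mean of the 3, from the fit with a batch term (left) and with a term for each experiment (right). Filled points are called and dotted lines mark 1.5-fold; MITF is called for ΔADAM and the mean on the left, and for ΔGS as well on the right.

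The constructs did not differ measurably from each other in these factors. For WT against both variants averaged, the comparison that bears on cleavage, 0 of 8 members and 0% of all genes were called by edgeR, with 0 members and 118 genes at an unadjusted p under 0.05, and DESeq2 called 0 members. The log2 difference of MITF was 0.21 higher with WT, with a 95% interval from -0.21 to 0.64 (adjusted p = 1, edgeR). For SNAI2 it was -0.04 (interval -0.45 to 0.36), for ZEB2 0.18 (-0.09 to 0.46), for SOX10 0.14 (-0.14 to 0.42) and for SOX9 0.11 (-0.58 to 0.81). For ΔGS against ΔADAM, 0 of 8 members and 0% of all genes were called as well, with 0 members and 119 genes at an unadjusted p under 0.05. MITF differed by 0.06 on the log2 scale (interval -0.44 to 0.55) and SOX9 by -0.03 (-0.82 to 0.77). The interval of SOX9 includes a difference of 1.5-fold in both comparisons, and that of MITF includes it for WT against the variants but not for ΔGS against ΔADAM.

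The wider network was examined with 5 lists in the comparison of the mean of the constructs with GFP, which uses all 12 libraries. The lists were chosen with earlier results of these data known, so their rates of calls are not independent of these data. Without the GFP library of experiment 1, the fit with the batch term called 0.00652% of all genes. Its counts of 0 below therefore say little about the lists. Of 33 targets of MITF and SOX10 in pigment cells, all tested, 0 were called higher and 10 lower, where 1.79% of all genes were called higher and 1.52% lower, and the median log2 fold change was -0.41 against -0.002 over all genes. CEACAM1, an adhesion molecule under MITF control, had 280 ± 51.0 CPM with GFP and 122 ± 66, 95.5 ± 36.4 and 95.1 ± 62.5 CPM with WT, ΔGS and ΔADAM TYRO3 (SD, n = 3), and its log2 fold change was -1.55 (adjusted p = 0.0144, edgeR).

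IRF4, a factor of pigmentation that cooperates with MITF, had 96 ± 12.7 CPM with GFP and between 47.9 and 55.3 CPM in the means of the constructs (log2 fold change -0.96, adjusted p = 0.0146, edgeR). Also called were DCT, an enzyme of melanin synthesis, TRPM1, OCA2, PPARGC1A, MBP, GPM6B and CAPN3, with log2 fold changes between -2.20 (TRPM1) and -0.88 (GPM6B). RAB27A, which transports melanosomes, had a log2 fold change of -0.51 at an adjusted p of 0.0162 (edgeR), below the fold required. In the paired fit 10 were again lower, against 2.19% of all genes. Leaving out the GFP library of experiment 1, 0 were called with the batch term and 8 lower in the paired fit, against 0.763% of all genes, with a median log2 fold change of -0.24 and -0.25, respectively.

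The list of genes high in pigment-poor melanoma cells held 18 symbols. Of these, CCN1 and CCN2 are newer symbols of CYR61 and CTGF, which were also on the list. It held CDH1 too, which encodes E-cadherin and is not an established marker of that state. All 16 distinct genes were tested, and 3 were called higher and 0 lower, against 1.79% and 1.52% of all genes. The median log2 fold change was 0.58 against -0.002 over all genes. AXL, a receptor of the same family as TYRO3, had 70.1 ± 15.8 CPM with GFP and 131 ± 61.7, 124 ± 40.1 and 128 ± 49.5 CPM with WT, ΔGS and ΔADAM TYRO3 (SD, n = 3), and its log2 fold change was 0.81 (adjusted p = 0.0247, edgeR). FOSL1, a subunit of AP-1, was also called, with a log2 fold change of 1.09 (adjusted p = 0.0277, edgeR). CTGF, a target of YAP, had a log2 fold change of 1.21 with an adjusted p of 0.0919 (edgeR). In the paired fit, 8 were higher, against 3.48% of all genes, and 0 lower, with NGFR, EGFR, WNT5A, CYR61 and CTGF added. After removal of the GFP library of experiment 1, 0 were called with the batch term and 6 higher in the paired fit, against 1.74% of all genes.

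Of 24 regulators of MITF transcription or activity, all tested, 1 was called higher and 2 lower, against 1.79% and 1.52% of all genes, and the median log2 fold change was -0.13 against -0.002 over all genes. GLI2, a factor that represses the M promoter, had 6.77 ± 1.77 CPM with GFP and between 11.7 and 13.1 CPM in the means of the constructs (log2 fold change 0.81, adjusted p = 0.0163, edgeR). MC1R, the melanocortin receptor upstream of cyclic AMP, had 25.2 ± 4.65 CPM with GFP and 15.5 to 16.4 CPM in the means of the constructs (-0.62, adjusted p = 0.0183, edgeR), and IRF4, which is also among the targets, is the other lower gene. EDNRB, an endothelin receptor, had -0.43 at an adjusted p of 0.0289 (edgeR), below the fold required. In the paired fit ATF4, a stress-response factor that represses MITF, was called higher too (0.91, adjusted p = 0.00906, edgeR). When the GFP library of experiment 1 was left out, 0 were called with the batch term. The paired fit then called GLI2 higher and IRF4 lower, against 1.74% and 0.763% of all genes.

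Of 23 family members and partners of the factors, 19 were tested, and 0 were called higher and 2 lower, against 1.79% and 1.52% of all genes, with a median log2 fold change of -0.21 against -0.002 over all genes. These were the SOX genes SOX4, with 62.2 ± 16.8 CPM with GFP and 31.7 to 34.4 CPM in the means of the constructs (log2 fold change -0.92, adjusted p = 0.031, edgeR), and SOX2, with 7.1 ± 1.29 against 3.9 to 4.02 CPM (-0.80, adjusted p = 0.043, edgeR). CTNNB1, which encodes beta-catenin, the partner of LEF1, had -0.41 (adjusted p = 0.0273, edgeR), below the fold required, and FOXD3, a neural crest factor, had -0.72 (adjusted p = 0.0509). In the paired fit 5 were lower, against 2.19% of all genes, with SOX5, SOX6 and FOXD3 added, and 1 higher, TFAP2C, against 3.48%. Less the GFP library of experiment 1, 0 were called with the batch term and 1 lower in the paired fit, SOX5, against 0.763% of all genes.

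Of the 3 relatives of MITF in the MiT family, TFE3, TFEB and TFEC, which share its DNA-binding domain, 0 were called with edgeR in either fit. TFE3 had 43.4 ± 5.07 CPM with GFP and 51.6 to 53.4 CPM in the means of the constructs (log2 fold change 0.26, adjusted p = 0.138, edgeR), TFEB had 2.62 ± 0.385 CPM with GFP (0.03, adjusted p = 0.964), and TFEC had 0.12 ± 0.127 CPM with GFP (1.70, adjusted p = 0.124).

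The genes whose pattern was most like that of MITF were found by the Pearson correlation of log2 CPM over the 12 libraries, after the mean of each experiment was subtracted, among 9952 genes with a mean of at least 10 CPM. For MITF these were PCDH7 (r = 0.999), a protocadherin, IGFBP5 (0.997), a binding protein of insulin-like growth factors, FAM198B (0.995), PLA2G4A (0.993), a cytosolic phospholipase, and PLOD2 (0.992), a collagen lysyl hydroxylase. For SOX10 they were MAPK8IP2 (0.981), EMILIN1 (0.981), KLHL22 (0.968), TENT5B (0.967) and SRC (0.966), the tyrosine kinase. Among the members, the same measure was -0.94 between MITF and SOX9, 0.91 between MITF and SNAI2, 0.88 between MITF and SOX10, -0.98 between SOX9 and SNAI2 and 0.34 between MITF and LEF1. These are descriptions of 12 points that share the libraries, their depth and the contrast with GFP.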

How the data were processed

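RNA of the 12 libraries was prepared with a stranded mRNA kit, and after read trimming the authors estimated transcript abundances with kallisto 0.46.0 on Ensembl (GRCh38). The deposited values are the estimated counts and TPM of kallisto for 188753 transcripts, along with effective lengths, before any batch correction. The strand setting of kallisto is not given in the sources used here, so reads of overlapping antisense genes may not be separated. Estimated counts were summed per gene over the 169797 transcripts found in GENCODE 29 (97.4% to 97.5% of the counts), rounded, and tested with edgeR 4.0.16 (R 4.3.3; TMM, quasi-likelihood test) on the 15098 genes that passed filterByExpr (minimum count 10, minimum total 15). Beside the groups, the design matrix separated experiment 1 from the other two, the batch that the study corrected for, and p-values were adjusted over all genes in each of 6 comparisons. Standard errors of edgeR were derived as the absolute log2 fold change over the square root of the F statistic of the quasi-likelihood test. Intervals are 95% intervals from these standard errors.

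Libraries of the same experiment number deviated together (r between 0.178 and 0.711 over 18 pairs, against -0.543 to 0.03 over 36 pairs with different numbers), and the labels name the experiment, so the paired fit has a term for each experiment. Biological replication is stated for the proteomics of the study but not, in the sources used here, for the RNA, so p-values measure the spread between these libraries. The members and lists were chosen with earlier results of these data known. Named were all members, the MITF transcripts that passed the filter, TYRO3, up to 4 genes of each list with the smallest adjusted p-value, and the 5 genes most like MITF and SOX10; other list genes were named because they were called. Some genes of the lists are counted but not reported here by name. The alternatives were DESeq2-type size factors, DESeq2 1.42.0, no filter, no batch term, the paired fit, experiments 2 and 3 alone, counts scaled from TPM by length, and each library left out. After seeing the data, the paired fit with a library left out and the lists without the GFP library of experiment 1 were added. The fit with the batch term was also run on simulated counts. These held no differences between experiments and had changes larger than the fitted changes of the members. That run therefore does not bear on the paired fit or on changes of the size seen here.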

Additional observations from a re-analysis of the deposited data

How the results depend on the processing

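With the experiment number as a replicate block, the members called were 0 with WT, 3 with ΔGS, 3 with ΔADAM and 3 for the mean of the constructs, instead of 0, 0, 1 and 2 with the batch term, and all genes called were 355, 706, 785 and 857 instead of 6, 69, 168 and 500. The block changed no other call of a member. DESeq2 called 2, 2, 2 and 3 members and 375, 609, 669 and 752 genes, and without a filter on low counts 3, 3, 3 and 3 members and 562, 765, 879 and 933 genes were called. Without the batch term 0, 0, 0 and 0 members and 3, 4, 5 and 19 genes were called, and in experiments 2 and 3 alone 0 members and 1 gene in each. With DESeq2-type size factors the ΔADAM call of MITF was lost, and 0 members and 164 genes were called with ΔADAM. At this setting 2 members and 500 genes were called for the mean of the constructs. With counts scaled from TPM by length, 0 members and 31 genes were called with ΔADAM, and 24 genes with ΔGS. This scaling gave 2 members and 370 genes for the mean of the constructs. For WT against both variants and for ΔGS against ΔADAM, DESeq2 called 1 gene each and the fit without a filter 6 and 5, none of them a member.

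In the 12 fits that each dropped 1 library, the members called ranged from 0 to 1 with ΔGS, from 0 to 1 with ΔADAM and from 0 to 3 for the mean of the constructs, and the genes called from 1 to 20 with WT, 1 to 137 with ΔGS, 1 to 449 with ΔADAM, 1 to 610 for the mean and 0 to 1 for ΔGS against ΔADAM. For the mean of the constructs the lowest number of genes came without the GFP library of experiment 1, and for the single constructs several libraries gave the lowest number. MITF was called for the mean in 11 of these 12 fits and with ΔADAM in 3. With the replicate block, leaving out a library gave 0 to 3 members with WT, 0 to 3 with ΔGS, 0 to 3 with ΔADAM and 1 to 3 for the mean. Genes called in these block fits are given only for the mean without the GFP library of experiment 1, 384 of 15328. The other block fits thus have no background rate here. The cause of the changes between fits was not tested.

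Several differences between constructs changed sign. Those of WT against the variants for MITF and ZEB2 did not, and ran from 0.058 to 0.47 (0.21 with all libraries) and from 0.057 to 0.33 (0.18 with all libraries) without single libraries. In experiments 2 and 3 alone, WT against the variants was 0.01 for SNAI2, and ΔGS against ΔADAM was -0.038 for MITF, -0.03 for TFAP2A and 0.038 for SOX9. With counts scaled from TPM by length, ΔGS against ΔADAM was 0.011 for LEF1 and 0.00 for TFAP2A. When single libraries were left out, WT against the variants ran from -0.071 to 0.001 for LEF1, -0.13 to 0.42 for SOX9 and -0.27 to 0.10 for SNAI2. In the same fits ΔGS against ΔADAM ran from -0.036 to 0.21 for MITF, -0.10 to 0.20 for SOX10, -0.073 to 0.10 for TFAP2A, -0.17 to 0.091 for SOX9 and -0.27 to 0.01 for ZEB2. For the mean of the constructs, MITF-202 was -0.005 with DESeq2-type size factors and ran from -0.34 to 0.38 without single libraries, MITF-204 from -3.46 to 1.48 and MITF-203 from -2.73 to 1.33. SOX9 had 2 counts in the GFP library of experiment 1.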
